A study of Homo sapiens with 4 samples.

Results

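Solute carriers are membrane proteins that move small molecules, ions and vitamins across the plasma membrane and the membranes of organelles, without hydrolysing ATP themselves. They are numbered by family, a family sharing sequence and usually a type of substrate. In T cells they supply the amino acids, glucose and nucleotide precursors that growth requires, and carriers of lysosomes and mitochondria pass metabolites between compartments. The genes described here are all those whose symbol in the array annotation starts with SLC and a family number, apart from 7 amino acid transporters left out by the rule, of which 0 were found in that annotation. This gave 37 of 14884 named genes: 22 protein-coding carriers, the regulator gene SLC2A4RG, and 14 noncoding or pseudogene transcripts that carry the name of a carrier gene. They are few because the annotation used paired a probe set with 23 of the 386 protein-coding RefSeq genes that have such a symbol. Among these are recently renamed carriers, many of them former MFSD genes of the major facilitator superfamily. The other carriers were not analysed here, so the values below describe these 37 genes and not the superfamily.

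The RNA came from HUT78, an immortal human T-cell line from a lymphoma of the skin, grown in medium with serum. There were 2 untreated arrays and 2 arrays of cells given the compound CSH71 at 250 nM for 30 h. The series concerns chemicals that target the lipid-binding part of p38γ, a stress-activated kinase. The labels name no vehicle and no time for the untreated cells, so whether they were cultured for the same 30 h is not known. The labels do not say that the replicates were separate cultures. The p-values therefore rest only on how far these arrays differ, partly pooled over all genes, and that spread could be technical. Each deposited value is a linear intensity of a probe set. Intensities of different probe sets depend on their probes, so they are compared between arrays and not between genes.

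The array medians lay between 71.5 and 81.1. The T-cell label was checked with 11 measured T-cell markers: ZAP70 ran from 1577 to 1829, CD5 from 1729 to 2100 and LCK from 1018 to 1157 over the 4 arrays, while CD2 (60.9 to 91.6) and CD28 (65.0 to 107) lay near the array medians. The summed intensity of these 11 markers was 9533 and 9801 in untreated and 9582 and 9229 in treated cells. Of 3 B-cell markers, 7 monocyte markers and 4 fibroblast and epithelial markers measured, 0 passed the test for a CSH71 difference given below. That test does not show whether a marker was expressed. Several lay above the array medians on every array, among them BLK (256 to 347), CD22 (186 to 300) and PAX5 (142 to 203). So did CSF1R (158 to 235), KRT18 (467 to 576) and EPCAM (1943 to 2169). LYZ (26.5 to 45.5) and DCN (19.2 to 42.9) lay below those medians. The values carry no detection call.

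None of the 37 genes passed the test for a difference between CSH71-treated and untreated cells. This was limma's moderated test on log2(intensity + 16), at a Benjamini-Hochberg adjusted p under 0.05 over all 14884 genes. It called 7 of those genes, or 0.0470%. Each standard error, printed after ± below, mixes the gene's own spread with a spread pooled over all genes. It is therefore not that gene's replicate spread alone. At an unadjusted limma p under 0.05 there were 3 of 37, against 5.10% of all genes: 2 higher (3.20% of all genes) and 1 lower (1.90%). A difference of at least 2-fold was seen in 0 of 37 (0.235% of all genes). In bulk RNA, fewer cells that express a gene and less of its RNA per cell cannot be told apart. The lowest log2 fold change of a member was -0.55, in the molybdate transporter gene SLC61A1, and the highest was 0.54, in the antisense transcript SLC39A12-AS1. The median log2 fold change was 0.03 over the 37 genes and -0.01 over all genes, with 20 members positive and 17 negative (47.9% of all genes were positive). Without untreated replicate 1 the members' median was -0.06.

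The 95% limma interval lay inside a 2-fold change in either direction for 34 of the 37 members (93.7% of all genes). This bounds the change of the measured signal, and for dim genes it understates the change of the RNA. The interval reached past 2-fold for SLC61A1 (-1.01 to -0.10), SLC39A12-AS1 (0.07 to 1.01) and SLC25A48-AS1 (-0.20 to 1.05). The exact permutation test over 2 against 2 arrays cannot give a p below 0.333 and was not used.

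**Figure D1:**
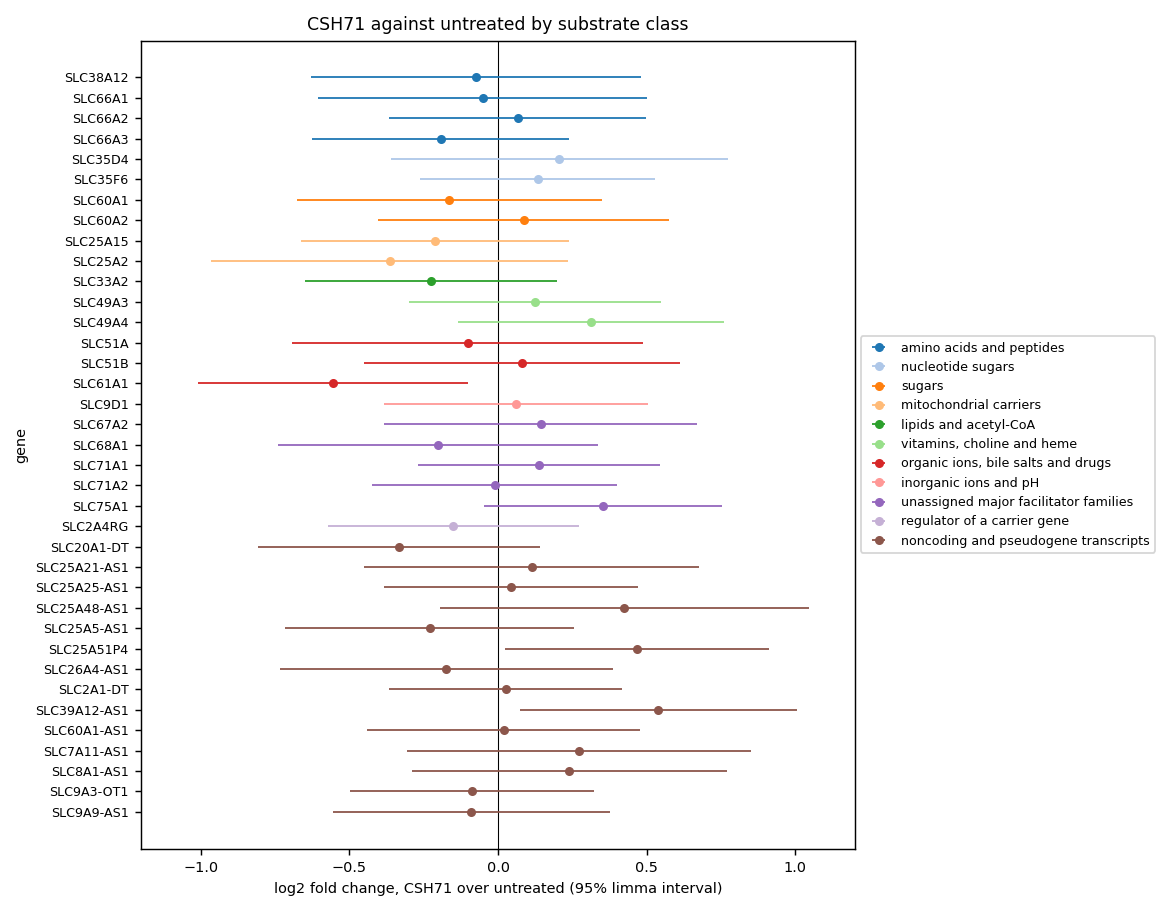
Log2 fold change of CSH71 over untreated (x axis) for each of the 37 genes (y axis), coloured by substrate class. Points are limma estimates on log2(intensity + 16) and bars their 95% intervals, with 2 arrays a group. The estimates run from -0.55 in SLC61A1 to 0.54 in SLC39A12-AS1, and 34 intervals lie between -1 and 1.

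Treated and untreated arrays did not overlap for 11 of the 37 genes, 6 higher and 5 lower with CSH71. Over all genes this held for 31.6%, 15.0% higher and 16.6% lower, so the members' share was near the background. For 6 of the 37, against 20.6% of all genes, the difference between groups was larger than the replicate difference in each group. These were SLC61A1, SLC75A1, SLC35F6, SLC39A12-AS1, SLC25A51P4 and SLC20A1-DT.

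Among the protein-coding carriers, SLC61A1, SLC75A1 and SLC49A4 had the largest differences of those whose groups did not overlap. SLC61A1, formerly MFSD5, encodes a molybdate transporter. Its intensity was 152 and 187 in untreated and 121 and 99.4 in treated cells. Both treated arrays were below both untreated ones. On the log2 scale the group means differed by more than the replicates, which differed by 0.27 in untreated and 0.25 in treated cells. The log2 fold change was -0.55 ± 0.19 (SE), with an unadjusted limma p of 0.0236 and an adjusted p of 0.928. SLC75A1, formerly MFSD10 and also called TETRAN, encodes an organic anion carrier related to bacterial tetracycline transporters. Its intensity was 259 and 279 in untreated and 363 and 333 in treated cells, so both treated arrays were above both untreated ones. The log2 fold change was 0.35 ± 0.17 (adjusted p = 0.990).

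SLC49A4, formerly DIRC2, encodes a carrier of the lysosomal membrane. It had 475 and 602 in untreated and 644 and 694 in treated cells. The groups did not overlap, but the untreated arrays lay further apart on the log2 scale (0.33) than the groups did (0.31 ± 0.19, adjusted p = 0.999). Leaving out each array in turn gave -0.69 to -0.42 for SLC61A1, 0.29 to 0.41 for SLC75A1 and 0.15 to 0.48 for SLC49A4. None of the 3 passed the limma threshold in any of the 13 alternatives.

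The 250 bases before the start of these 3 genes are shown because, of the protein-coding carriers whose groups did not overlap, they had the largest differences. They are RefSeq sequences of GRCh38.p14, at chr12:53251845-53252094 (plus strand), chr4:2934826-2935075 (minus strand) and chr3:122794819-122795068 (plus strand) in the order printed, each read 5′ to 3′ along the gene. Capitals mark GC boxes, that is GGGCGG or its reverse complement CCGCCC, where adjoining copies can overlap.
SLC61A1: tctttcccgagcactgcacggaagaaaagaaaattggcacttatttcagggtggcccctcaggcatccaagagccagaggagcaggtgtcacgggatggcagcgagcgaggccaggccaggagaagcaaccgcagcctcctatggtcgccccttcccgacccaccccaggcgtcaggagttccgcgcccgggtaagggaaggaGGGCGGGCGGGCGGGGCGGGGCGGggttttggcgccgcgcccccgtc
SLC75A1: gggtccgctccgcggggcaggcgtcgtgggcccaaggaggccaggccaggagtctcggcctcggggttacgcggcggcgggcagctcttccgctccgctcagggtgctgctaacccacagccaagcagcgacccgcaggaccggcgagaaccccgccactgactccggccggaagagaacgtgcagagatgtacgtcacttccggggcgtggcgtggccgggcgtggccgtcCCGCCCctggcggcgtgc
SLC49A4: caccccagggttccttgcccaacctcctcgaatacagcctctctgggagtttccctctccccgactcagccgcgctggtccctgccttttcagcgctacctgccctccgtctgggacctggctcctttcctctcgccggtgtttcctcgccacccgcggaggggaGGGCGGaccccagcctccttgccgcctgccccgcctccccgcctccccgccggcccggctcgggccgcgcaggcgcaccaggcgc

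All 3 stretches are rich in CG dinucleotides, with 21 in SLC61A1, 31 in SLC75A1 and 23 in SLC49A4. RefSeq promoters were found for 26 of the 37 genes. A GC box, the letters that Sp-family factors recognise, stood in 20 of these 26 (76.9%). It stood in 57.8% of 10749 promoters of genes measured here and in 42.3% of 27305 promoters in all. Of the 26, 18 were of protein-coding genes, and 15 of these held a GC box. The background shares were not split by gene type, whose part in the contrast was not tested. The median number of CG dinucleotides was 24.5 in the members' promoters and 18 in those of the measured genes. The AP-1 site TGACTCA (or TGAGTCA) was in 0 of the 26 and in 3.30% of the measured genes' promoters. The cAMP response element TGACGTCA was in 0 of the 26 and in 2.34%. The E-box CACGTG was in 1 of the 26, SLC60A2, and in 7.93%. Both strands were searched in the same 250 bases, and a match or its absence describes only the letters of this window.

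The amino acid class held 4 genes: SLC66A1, which encodes the lysosomal exporter of cationic amino acids, its relatives SLC66A2 and SLC66A3, and SLC38A12, formerly TMEM104. Carriers were placed in classes by family number alone, and the substrates of SLC66A2, SLC66A3 and SLC38A12 were not examined. The groups overlapped for all 4, and the class median was -0.06 (range -0.19 to 0.07), of either sign depending on which array was left out (-0.23 to 0.11). SLC66A1 had 71.4 and 84.9 in untreated and 94.8 and 58.1 in treated cells. Here the treated arrays held both the highest and the lowest value, and the log2 fold change was -0.05 ± 0.23. SLC66A2 had 231 and 227 in untreated and 268 and 216 in treated cells (0.07 ± 0.18). SLC66A3 had 393 and 447 in untreated and 398 and 335 in treated cells (-0.19 ± 0.18). SLC38A12 had 164 and 257 in untreated cells, a replicate difference of 0.60 on the log2 scale, and 206 and 184 in treated cells, which lay between them.

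**Figure D2:**
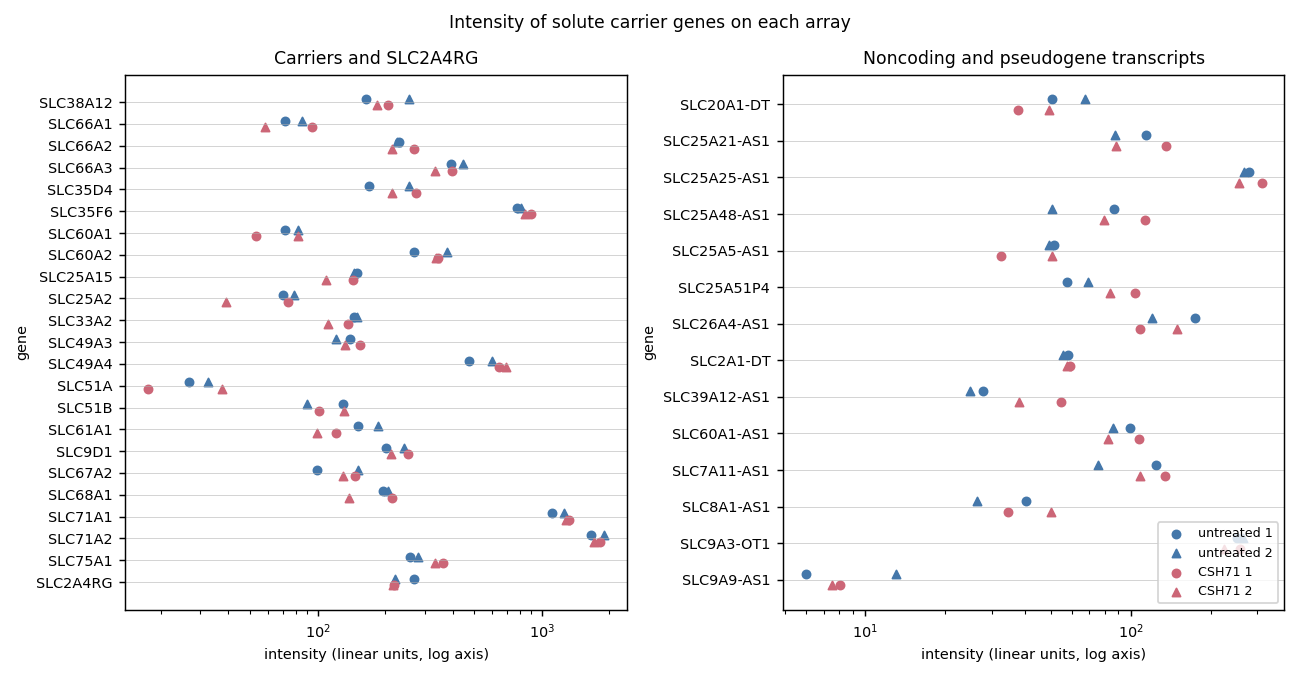
Intensity of each gene on each array, on a log axis in linear intensity units, for the carriers with SLC2A4RG (left) and for the noncoding and pseudogene transcripts (right). Blue marks are untreated and red marks CSH71-treated cells, circles replicate 1 and triangles replicate 2. In most rows the colours interleave, as for SLC66A1, while in SLC61A1 (99.4 to 121 treated, 152 to 187 untreated) and SLC75A1 (333 to 363 treated, 259 to 279 untreated) they separate.

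No sugar or nucleotide-sugar carrier passed the test. SLC60A2, the sodium-dependent glucose transporter also called NaGLT1, had 270.0 and 378 in untreated and 343 and 338 in treated cells. The treated arrays lay between the untreated ones and the log2 fold change was 0.09 ± 0.21. Its relative SLC60A1 had 71.2 and 81.6 in untreated and 53.2 and 82.0 in treated cells (-0.16 ± 0.22). SLC35D4 and SLC35F6 carry the number of the family of nucleotide-sugar transporters, many of which feed glycosylation in the Golgi. They were placed in this class by that number alone, and their own substrates were not examined. SLC35F6 had 775 and 807 in untreated and 893 and 845 in treated cells. Its groups did not overlap, and its log2 fold change of 0.13 ± 0.17 exceeded the replicate differences of 0.06 and 0.08 (adjusted p = 0.999). SLC35D4, formerly TMEM241, had 169 and 255 in untreated and 274 and 215 in treated cells (0.21 ± 0.24), with overlapping groups.

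The mitochondrial ornithine carriers SLC25A15 and SLC25A2 exchange ornithine and citrulline across the inner membrane in the urea cycle. SLC25A15, the gene of an inherited hyperornithinaemia syndrome, had 150.3 and 146 in untreated and 144 and 109 in treated cells. Both treated arrays were lower, but the first by less than the untreated arrays differed, and the log2 fold change of -0.21 ± 0.19 was -0.04 without CSH71 replicate 2. SLC25A2 had 70.3 and 78.7 in untreated and 73.7 and 39.0 in treated cells. The log2 fold change was -0.36 ± 0.25, and -0.01 without the same array. SLC33A2, formerly MFSD3 and a relative of the acetyl-CoA transporter of the endoplasmic reticulum, had 146 and 149 in untreated and 137 and 112 in treated cells, which were both lower (-0.22 ± 0.18). All 3 had an adjusted limma p of 0.999.

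SLC51A and SLC51B encode the 2 subunits of the organic solute transporter, which exports bile acids and steroids and needs both chains. SLC51A was dim, at 26.7 and 32.4 in untreated and 17.6 and 37.5 in treated cells. SLC51B had 129.7 and 89.6 in untreated and 101 and 131 in treated cells. The groups overlapped for both, with log2 fold changes of -0.10 ± 0.25 and 0.08 ± 0.22. With SLC61A1 they made up the class of organic ions, bile salts and drugs, whose median was -0.10 and turned to 0.23 without CSH71 replicate 1. SLC49A3, formerly MFSD7, had 139 and 121 in untreated and 154 and 133 in treated cells (0.13 ± 0.18). SLC9D1, formerly TMCO3 and named with the sodium-proton exchangers, had 203 and 242 in untreated and 253 and 213 in treated cells (0.06 ± 0.19).

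The major facilitator families without an assigned substrate class held 5 genes, 3 with a positive and 2 with a negative log2 fold change. SLC71A1 and SLC71A2, formerly MFSD14A and MFSD14B, are paralogs first described as a hippocampus-abundant transcript and its relative. SLC71A1 had 1106 and 1258 in untreated and 1323 and 1277 in treated cells. Its groups did not overlap, with treated replicate 2 only just above untreated replicate 2 (0.14 ± 0.17). SLC71A2 had 1665 and 1899 in untreated and 1825 and 1704 in treated cells, with both treated arrays between the untreated ones (-0.01 ± 0.17, interval -0.42 to 0.40). SLC67A2, formerly MFSD9, had 99.7 and 152 in untreated and 146 and 129.9 in treated cells (0.14 ± 0.22). SLC68A1, formerly TMEM180, had 196 and 206 in untreated and 215 and 138 in treated cells (-0.20 ± 0.23). The median of the 5 was 0.14, and -0.11 without untreated replicate 1.

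SLC2A4RG is not a carrier. It encodes a DNA-binding protein that acts on the promoter of the glucose transporter gene SLC2A4. It had 269 and 222 in untreated and 219.9 and 218 in treated cells. Both treated arrays were lower, but untreated replicate 2 lay close to them (-0.15 ± 0.18).

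The 14 noncoding and pseudogene transcripts had a median log2 fold change of 0.03 (range -0.33 to 0.54), with 9 positive and 5 negative. The median ran from -0.02, without untreated replicate 2, to 0.11, without CSH71 replicate 2. SLC39A12-AS1, which overlaps the zinc transporter gene SLC39A12, had 28.0 and 24.9 in untreated and 54.5 and 37.9 in treated cells. Both treated arrays were higher in this dim transcript, by 0.54 ± 0.20 on the log2 scale, for which limma gave an unadjusted p of 0.0292 and an adjusted p of 0.930. The pseudogene SLC25A51P4, a copy of a mitochondrial carrier gene, had 57.6 and 69.1 in untreated and 104 and 83.9 in treated cells, also without overlap. The log2 fold change was 0.47 ± 0.19, with an unadjusted limma p of 0.0416 and an adjusted p of 0.958. Its probes may also read other copies of that gene, which was not tested. SLC20A1-DT, divergent from a phosphate transporter gene, had 50.8 and 67.3 in untreated and 37.7 and 49.3 in treated cells (-0.33 ± 0.20). Its groups did not overlap, with treated replicate 2 just below untreated replicate 1. These 3 were the only transcripts of the 14 without overlap.

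Of the others, SLC25A48-AS1 had the largest difference (0.43 ± 0.26), with 86.4 and 50.8 in untreated and 114 and 79.2 in treated cells, which overlapped. SLC7A11-AS1, antisense to the cystine transporter gene, had 125 and 75.7 in untreated and 134 and 109 in treated cells (0.27 ± 0.24). SLC60A1-AS1 was the single noncoding member whose overlapping carrier gene was also measured. It had 99.6 and 85.9 in untreated and 108 and 81.9 in treated cells (0.02 ± 0.19). In the treated cells SLC60A1-AS1 was higher on replicate 1 and SLC60A1 on replicate 2. SLC9A9-AS1 was the dimmest, at 5.99 and 13.1 in untreated and 8.03 and 7.51 in treated cells. The remaining 7 ran from -0.23 to 0.24, all with overlapping groups. The labelling assay keeps the strand, but how far the probe sets of an antisense transcript also pick up its overlapping gene was not tested.

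Single arrays of the carriers differed within groups by amounts like those between groups. Over the 22 protein-coding carriers, untreated replicates 1 and 2 differed by a median of 0.18 in absolute log2 value and CSH71 replicates 1 and 2 by 0.24, while a treated and an untreated array differed by medians of 0.14 to 0.30. The closest pair was untreated replicate 2 and CSH71 replicate 1. The group means, each over 2 arrays, differed by a median of 0.14. Over all genes the replicate differences were 0.22 and 0.19, those across groups 0.17 to 0.24, and that of the means 0.14. Between the treated arrays 18 of the 22 carriers were lower on replicate 2 (median -0.17), against 7880 of all 14884 genes (median -0.02). Between the untreated arrays 18 of the 22 were higher on replicate 2 (median 0.18), against 8541 of all 14884 genes (median 0.06). Of all 37 members, 29 were lower on treated replicate 2 and 22 higher on untreated replicate 2. SLC25A2, SLC66A1 and SLC68A1 lay furthest below replicate 1 on CSH71 replicate 2, while SLC51A and SLC60A1 were higher there. The array medians over all probe sets, most of them without a symbol, run the other way. They were 73.6 and 81.1 in the treated and 77.5 and 71.5 in the untreated replicates 1 and 2. Their part in the replicate differences was not tested.

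**Figure D3:**
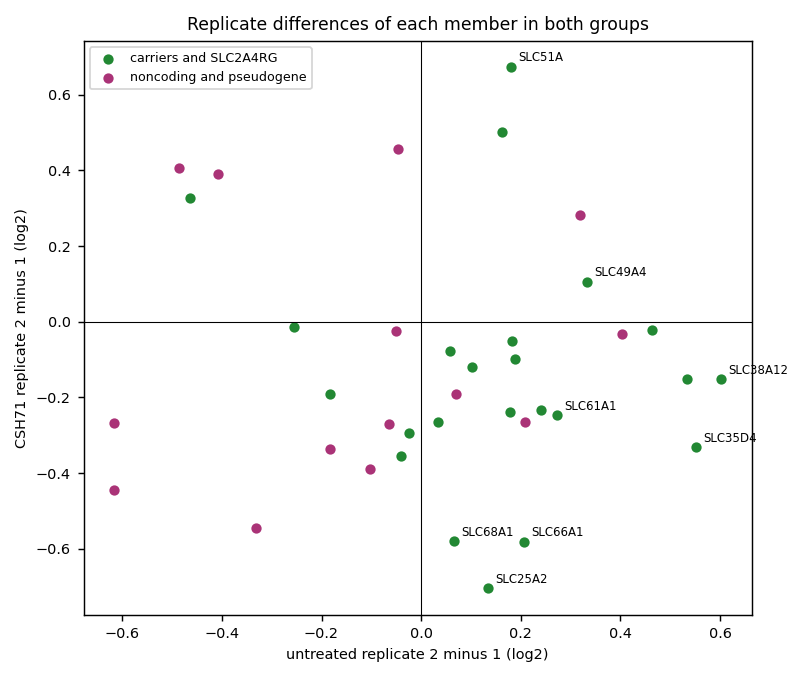
Replicate 2 minus replicate 1 on the log2(intensity + 16) scale in untreated (x axis) and CSH71-treated cells (y axis), 1 point a gene. Green points are the carriers with SLC2A4RG and purple points the noncoding and pseudogene transcripts. Most green points lie to the right of 0 and below 0, with SLC25A2 lowest.

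**Figure D4:**
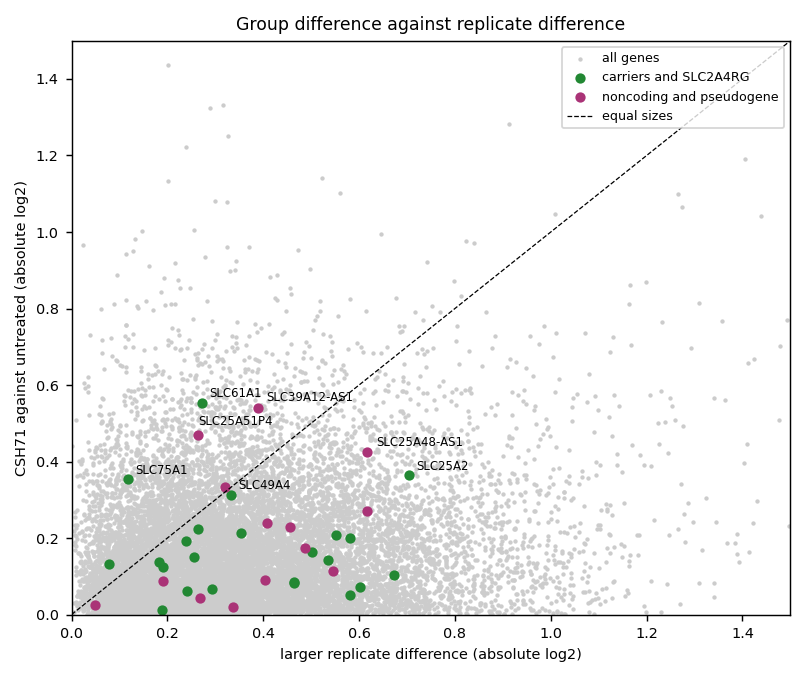
Absolute log2 difference between group means (y axis) against the larger of the 2 absolute replicate differences (x axis) for all genes (grey), carriers with SLC2A4RG (green) and noncoding and pseudogene transcripts (purple). Both axes stop at 1.5, and genes beyond are not drawn. The 6 members above the dashed line of equal sizes include SLC61A1, SLC75A1 and SLC39A12-AS1, and the rest lie below it.

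Proteins that escort or control solute carriers were given by a separate list, of which 22 were measured outside the members. None passed the test. Of the 22, 14 were positive and 8 negative (47.9% of all genes were positive), and 4 had an unadjusted limma p under 0.05, against 5.10% of all genes. SGK1, a kinase that raises the surface level of several carriers and channels, came closest, at 525 and 646 in untreated and 1959 and 1908 in treated cells. Both treated arrays were far above the untreated ones (1.70 ± 0.18, adjusted p = 0.0563). EPAS1, a hypoxia-inducible factor subunit, had 165 and 233 in untreated and 398 and 332 in treated cells (0.84 ± 0.22, adjusted p = 0.928). The α-arrestins ARRDC3 and ARRDC4, of a family that takes glucose transporters into the cell, were lower on both treated arrays, at -0.69 ± 0.19 and -0.50 ± 0.18 (both adjusted p = 0.928). Their relative TXNIP was at 0.38 ± 0.17. BSG, the chaperone of monocarboxylate transporters, was at 0.03 ± 0.17.

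Of carriers that have no SLC symbol, 30 were measured, and 0 passed the test, with 15 positive and 15 negative and a median of -0.00368. The pyruvate carrier subunits MPC1 and MPC2 were at -0.08 ± 0.18 and -0.05 ± 0.17, and the phosphate exporter XPR1 at 0.18 ± 0.23. SV2C, a vesicle protein of the same fold, was the only one of the 30 with an unadjusted limma p under 0.05, against 5.10% of all genes. SV2C was dim, below the array medians, at 29.5 and 28.1 in untreated and 52.6 and 57.2 in treated cells (0.66 ± 0.17, adjusted p = 0.928). Its relatives SV2A and SV2B had the opposite sign, at -0.36 ± 0.20 and -0.20 ± 0.20.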

How the data were processed

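Total RNA was labelled with an Affymetrix whole-transcript sense assay, per the labels' protocols. The authors deposited a linear intensity for each probe set, made with Affymetrix Expression Console, per the submitters' processing notes. How the software summarised, background-corrected and normalized them, its version and the genome build are not stated in the sources used here. Of 53617 probe sets, 16098 had 1 symbol in the platform annotation, 0 several and 37519 none. All 16098 matched RefSeq by entrez identifier and 0 symbols changed. The brightest probe set was used for each of 14884 genes, and each of the 37 members had a single one. Groups came from the sample titles. Values were transformed to log2(intensity + 16), which understates changes of dim genes, and fitted with limma 3.58.1 (R 4.3.3) as 2 group means, with 2-sided p-values adjusted by the Benjamini-Hochberg method over all genes. The number of arrays limits the precision.

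The members, substrate classes and lists were chosen with earlier results of these data known, and families absent from the class list were added after the symbols had been seen. SLC61A1 stayed with organic ions although molybdate is inorganic. Members were named if called, among the 12 brightest, among the 10 largest non-overlapping differences in either direction with a group above the median gene, or among the 3 brightest or the 2 with the smallest p of a class. From each other list up to 4 with the smallest p were eligible. This gave 26 members. The other 11, with BSG, TXNIP, MPC1, MPC2, XPR1, ZAP70, LCK, CD2 and SV2B, were added after their values were seen. The alternatives were pseudocounts of 1 and 64, quantile normalization, median centring, removal of the dimmest 40% of genes, an intensity trend in the prior, the mean of probe sets, the replicate number as a block and each array left out. A crossed block was added after seeing the data. On simulated data for this comparison with 14884 genes, the fit recovered 19.8% of genes with a simulated 2-fold change and 94.9% of those with a 4-fold one. The simulations gave 122 calls on average, 7.7 of them false, against 7 calls in the real data. The Benjamini-Hochberg cut is stricter where fewer genes change, so the share recovered in these data could be lower. Figures were drawn with matplotlib 3.10.9.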

Additional observations from a re-analysis of the deposited data

How the results depend on the processing

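In all 13 alternatives limma called 0 of the members tested, with 0 to 4 of them at an unadjusted p under 0.05, while the number of all genes called ran from 0 to 143. With all 4 arrays kept, 526 to 1288 of all genes tested had an unadjusted limma p under 0.05, the fewest with the filter on dim genes. That filter removed 13 of the 37 members. With the replicate block 0 members and 27 of all genes were called. The replicate 1 minus 2 differences of the groups correlated at -0.29 over genes, and the labels do not say what the numbers share, so they were not taken as pairs. A crossed replicate block called 0 members and 0 of all genes. With it 4 of the 37 members had an unadjusted limma p under 0.05, beside 1288 of all 14884 genes. With 1 array left out, where the lone array is assumed to vary like the other group, medians ran from -0.059 to 0.089 over all members, from -0.43 to 0.23 for organic ions, bile salts and drugs, and from -0.11 to 0.23 for the unassigned families. Of the 26 members named by rule, 13 kept their sign in every alternative. The other 13 changed sign with 1 array left out. Their ranges were -0.092 to 0.18 for SLC25A25-AS1, -0.42 to 0.069 for SLC26A4-AS1, -0.069 to 0.48 for SLC35D4, -0.37 to 0.23 for SLC38A12, -0.44 to 0.23 for SLC51A, -0.15 to 0.31 for SLC51B, -0.41 to 0.086 for SLC60A1, -0.15 to 0.32 for SLC60A2, -0.080 to 0.21 for SLC66A2, -0.49 to 0.089 for SLC68A1, -0.11 to 0.083 for SLC71A2, -0.18 to 0.0077 for SLC9A3-OT1 and -0.059 to 0.18 for SLC9D1. Median centring also turned SLC71A2, to 0.0088. The causes were not tested. With no background level deposited, the dimmest members cannot be told from background signal.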
